A study of Mus musculus with 9 samples.

Results

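Fatty acid synthesis and desaturation were followed through 10 genes, chosen by name from the pathway: the carbon supply and synthesis enzymes Acly, Acaca and Fasn, the elongases Elovl1, Elovl5 and Elovl6, and the desaturases Scd1, Scd2, Fads1 and Fads2. All 10 were among the 40993 genes of the deposited table, and 8 of them were among the 11161 genes tested. Scd1 and Fads2 were not tested, because their mean over the libraries was under 1 FPKM (fragments mapped to a gene, divided by transcript length and by the number of mapped fragments, so that levels of different genes can be compared). RNA was sequenced from BV2 cells, an immortalized line of mouse microglia, the resident macrophages of the brain. Control cells received no particles (3 libraries), and treated cells received MNPs@SiO2(RITC) for 12 h at 10 µg/ml (3 libraries) or 100 µg/ml (3 libraries). Each of these particles has a magnetic cobalt ferrite core and a shell of silica that holds the dye rhodamine B isothiocyanate. All groups are the same cell line, and the labels do not say whether the replicates were separate cultures, so p-values measure the spread between these libraries, which may be technical. The comparisons ask whether the particles changed the RNA of this pathway, and whether the change differed between the doses.

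Cells make fatty acids in the cytosol from citrate that leaves the mitochondria. ATP citrate lyase splits citrate into acetyl-CoA, acetyl-CoA carboxylase adds a carboxyl group to give malonyl-CoA, and fatty acid synthase joins these units into palmitate. Elongases lengthen the chain in the endoplasmic reticulum and desaturases put in double bonds. Stearoyl-CoA desaturases make oleate-type fats, while the products of Fads1 and Fads2 act on the essential polyunsaturated fatty acids that brain membranes and eicosanoids draw on. In macrophages many of these genes are under the sterol-regulated factors SREBP and LXR.

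The cells carried the marker genes of their label in part. Of 10 microglial markers 8 reached a mean of 1 FPKM, and their sum was 924 to 1020 FPKM in control cells, 931 to 973 at 10 µg/ml and 879 to 972.5 at 100 µg/ml. Cx3cr1 and P2ry12, receptors of resting microglia, stayed at or under 0.146 FPKM in every library. The neuron gene Tubb3 was not matched by name in the deposited table. No other gene of the astrocyte, neuron, oligodendrocyte, adipocyte and fibroblast lists reached a mean of 1 FPKM. The adipocyte genes Plin1, Cidec and Lep were listed at 0 throughout, though a listed 0 can be a failed estimate. The depth, estimated from the steps between low FPKM values, lay between 11.8 and 14.9 M fragments per library (M for mega) and is approximate.

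One library stood apart. In replicate 1 at 100 µg/ml, genes with long transcripts were low against the other 2 libraries of its group, with a median difference of -0.41 in log2(FPKM + 1) for transcripts of 8000 nt or more and 0.24 for those under 2000 nt. Spearman's rho between this difference and transcript length was -0.60 over 11076 genes, against -0.34 to 0.25 in the control and 10 µg/ml libraries. The value describes 1 library across genes, which are not replicates. Because several members have long transcripts, the difference between 100 µg/ml and control is given below with and without this library for each of the 8 genes tested.

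Read as levels in control cells, the pathway was dominated by Scd2. Its mean was 778 FPKM, above that of 99.6% of the genes tested, and it made up 48.0 to 51.6% of the summed FPKM of the 10 genes in every library. Acly followed at 215 FPKM, then Elovl1 at 148 and Fasn at 147, whose libraries overlapped. Fads1 at 83.8 FPKM and Elovl5 at 80.5 FPKM overlapped in control cells and at 10 µg/ml, but at 100 µg/ml the Fads1 libraries all lay above those of Elovl5. Acaca came next at 51.2 FPKM and Elovl6 at 36.4 FPKM. These ranges were apart in control cells and at 10 µg/ml and overlapped at 100 µg/ml. Scd1 was at 0.456 FPKM, and Fads2 was listed at 0 in 8 of 9 libraries. Each other pair of neighbours down to Scd1 was apart in every group. Together the 10 genes came to 1540 ± 43.7 FPKM in controls, 1544 ± 63.0 FPKM with the low dose and 1504 ± 123 FPKM with the high dose (SD, n = 3 each).

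**Figure D1:**
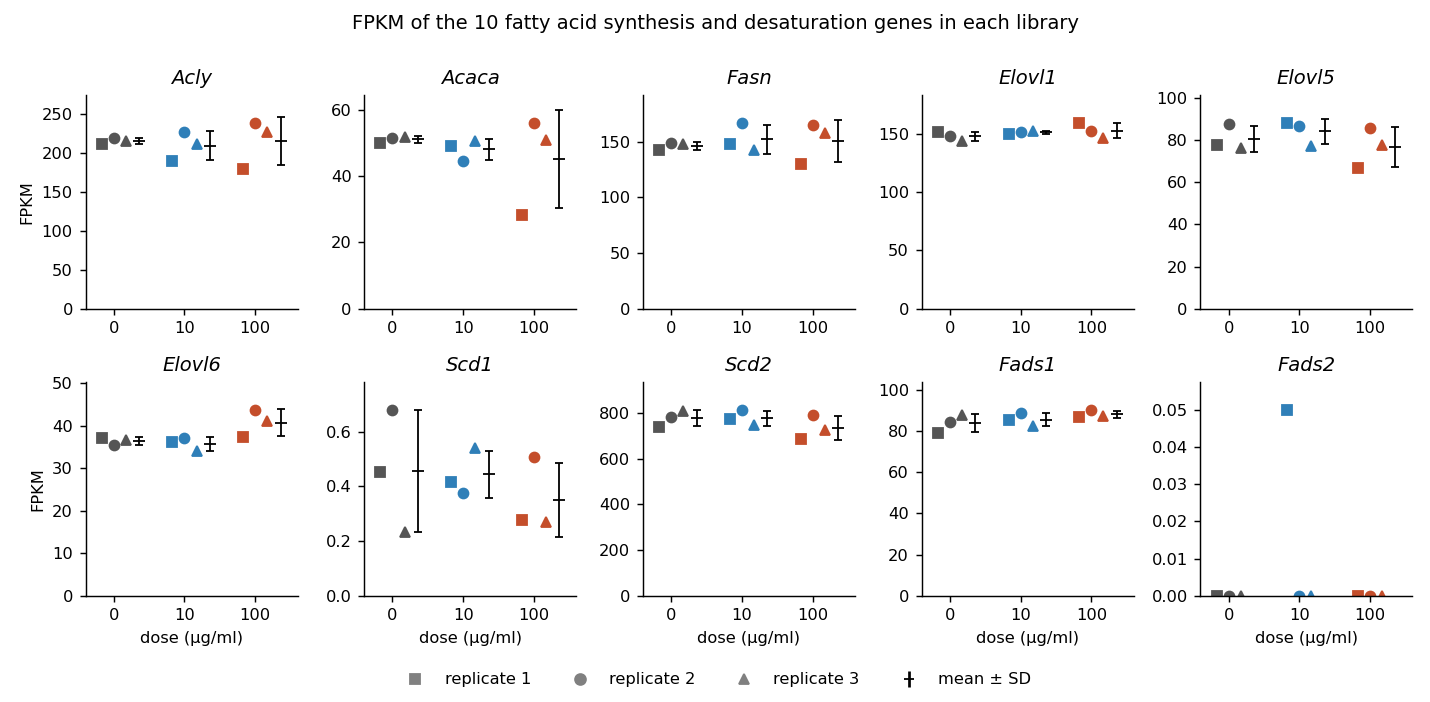
FPKM (vertical axes, linear and starting at 0) of each of the 10 genes in the 9 libraries, by dose in µg/ml; squares, circles and triangles are replicates 1, 2 and 3, and black marks are means ± SD of 3 libraries, left out for Fads2, which was listed at 0 in 8 libraries. Elovl6 at 100 µg/ml lay above the other groups by a small margin, and Acaca, Acly, Fasn and Elovl5 were each lowest in replicate 1 at 100 µg/ml.

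None of the 8 genes tested passed the threshold in any comparison, with the threshold set at an adjusted p of 0.05 from limma with Benjamini-Hochberg adjustment over all 11161 genes. At 100 µg/ml against control the count was 0 of 8 genes, where 2.11% of all genes passed. At 10 µg/ml against control it was 0 of 8, and 0% of all genes passed. At 100 against 10 µg/ml it was also 0 of 8, against 0.851% of all genes. At an unadjusted p under 0.05 there was 1 of the 8 genes at 100 µg/ml against control (19.4% of all genes), 0 at 10 µg/ml (3.28%) and 1 at 100 against 10 µg/ml (14.3%). In each comparison 4 genes were above 0 and 4 below. Their median log2 fold change was 0.01 with the high dose and also 0.01 with the low dose, beside -0.0016 and 0.00015 over all genes tested. At 10 µg/ml against control 0 of the 8 genes had libraries that did not overlap, where 10.7% of all genes did. In these bulk libraries a lower level in every cell and fewer cells with the RNA cannot be told apart.

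**Figure D2:**
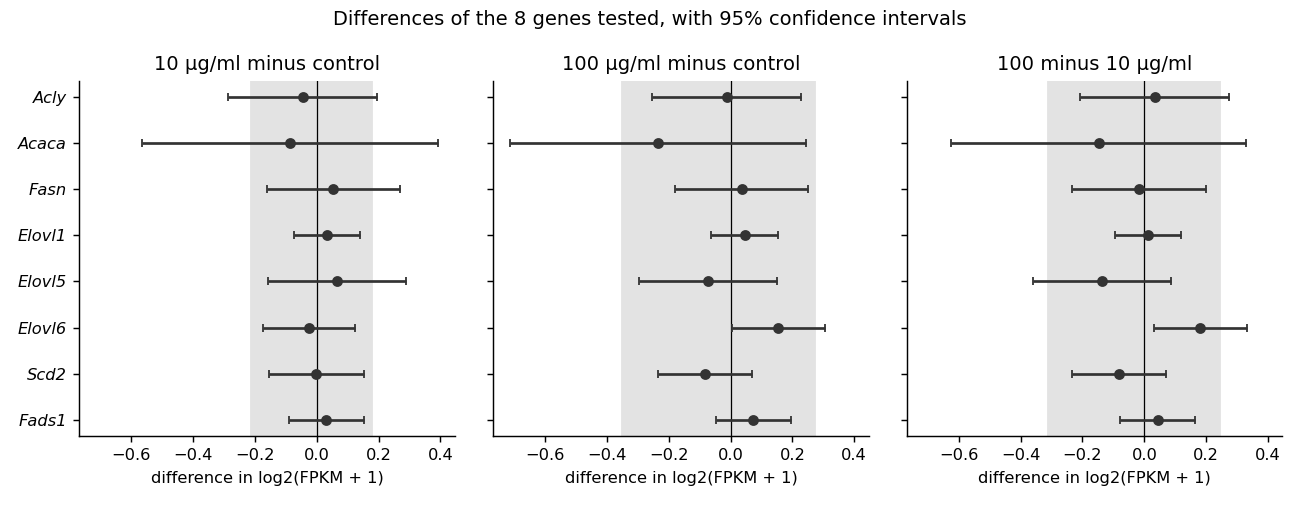
Difference in log2(FPKM + 1) (horizontal axis) for the 8 genes tested in each comparison; points are limma estimates from 3 libraries per group, bars their 95% confidence intervals, and grey bands run from the 5th to the 95th percentile of all 11161 genes. Only the Elovl6 intervals at 100 µg/ml exclude 0, and the Acaca intervals are the widest.

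The enzymes of palmitate synthesis were level across the doses in most libraries. Acly (ENSMUSG00000020917, GRCm38 chromosome 11 from 100476353 to 100528000, minus strand) encodes ATP citrate lyase. Its FPKM was 211, 219 and 216 in control cells, 189, 226 and 211 at 10 µg/ml, and 179.7, 238 and 226 at 100 µg/ml. The groups overlapped, and replicate 1 was the lowest library at both doses. With the high dose the log2 fold change was -0.01 (95% confidence interval -0.25 to 0.23, adjusted p = 0.961, limma), and it was 0.11 without replicate 1 at 100 µg/ml.

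Fasn (ENSMUSG00000025153, chromosome 11 from 120805940 to 120824178, minus strand) encodes fatty acid synthase. It was at 142, 149 and 148 FPKM in control cells, 148, 167 and 142 at 10 µg/ml, and 129.8, 165 and 158 at 100 µg/ml. Both the highest libraries and the lowest one were from treated cells, and all groups overlapped. Against control the high dose gave a log2 fold change of 0.04 (interval -0.18 to 0.25, adjusted p = 0.872, limma), so that a fold between 0.883 and 1.19 on the log2(FPKM + 1) scale lies within the interval. Without replicate 1 it was 0.14. At 10 µg/ml it was 0.05 (interval -0.16 to 0.27, adjusted p = 1, limma).

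Acaca (ENSMUSG00000020532, chromosome 11 from 84129672 to 84401651, plus strand) encodes acetyl-CoA carboxylase 1, which makes the malonyl-CoA for Fasn. Its FPKM was 50.1, 51.5 and 52.0 in control cells and 49.2, 44.7 and 50.8 at 10 µg/ml. At 100 µg/ml it was 28.3 in replicate 1, 56.2 in replicate 2 and 51.1 in replicate 3. Replicate 1 held the lowest value of the 9 libraries, and the other 2 libraries of its group were at the level of control cells. Against control this gave a log2 fold change of -0.23 (standard error 0.21, interval -0.71 to 0.24, adjusted p = 0.589, limma), the widest interval of the 8 genes. Without replicate 1 the sign turned, to 0.06 against control and 0.15 against 10 µg/ml (adjusted p = 0.587 and 0.277, limma).

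Acaca was low in this library also among genes of its length. In replicate 1 at 100 µg/ml Acaca was at 0.537 of replicates 2 and 3 on the FPKM + 1 scale, and only 2.39% of genes with transcripts of 8000 nt or more were lower by this measure. Fasn, whose longest transcript has 10050 nt against 9513 nt for Acaca, was at 0.804, and 63.0% of that length class were lower. The log2 ratio of Fasn to Acaca within a library was 1.51, 1.54 and 1.51 in control cells, 1.59, 1.90 and 1.49 at 10 µg/ml, and 2.20, 1.56 and 1.63 at 100 µg/ml. The highest ratios were those of replicate 1 at 100 µg/ml and replicate 2 at 10 µg/ml.

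Acaca is also the member that shares most of its sequence with another gene. Of the 9464 windows of 50 nt in its longest transcript, 4974 (52.6%) occur without change in Gm5182 (ENSMUSG00000111942), a single-exon pseudogene on chromosome 12 from 10152142 to 10158233. The coding sequence and the pseudogene were identical at 99.7% of 6090 aligned positions, with a longest shared run of 663 nt. One stretch of 60 nt shows how little there is to tell them apart, with capitals at the positions where they differ. It comes from chromosome 11, 84311478 to 84312781 (plus strand, 2 exons of Acaca), and from chromosome 12, 10155496 to 10155555 (plus strand), of the GENCODE M21 transcripts on GRCm38.
Acaca: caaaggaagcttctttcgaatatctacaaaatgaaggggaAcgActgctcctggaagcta
Gm5182: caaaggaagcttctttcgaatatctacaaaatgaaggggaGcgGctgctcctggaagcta
Reads from the shared windows may map to both places, so the FPKM of Acaca may depend on how they were divided. The level of Gm5182 was not analysed here, and whether the division of reads moved with replicate 1 at 100 µg/ml was not tested. Acly, Fasn, Elovl5 and Fads1 had no window in common with another gene.

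**Figure D3:**
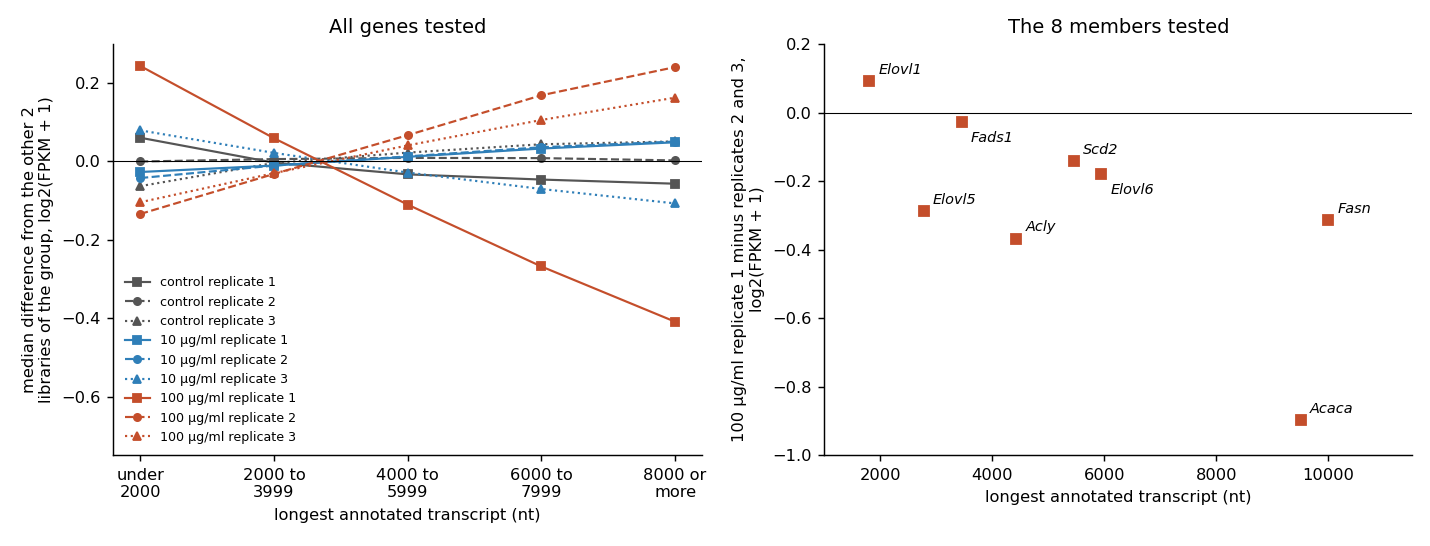
Left, median difference in log2(FPKM + 1) of each library from the other 2 of its group (vertical axis) for 11076 genes in 5 classes of transcript length (horizontal axis, nt); colours mark the groups and symbols the replicates. Right, the same difference of replicate 1 at 100 µg/ml for the 8 members against transcript length; 7 of 8 were below 0, and Acaca was lowest at -0.90.

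The same library was low for most of the pathway. In replicate 1 at 100 µg/ml 7 of the 8 members were below replicates 2 and 3, with a median of -0.23 on the log2 scale, beside 0.028 over all genes. Only Elovl1, the member with the shortest transcript (1811 nt), was above. Acly and Elovl5 were at -0.37 and -0.29, and 8.40% and 4.09% of genes in their length classes were lower. Elovl6, Scd2 and Fads1 lay between -0.18 and -0.03, with 30.9% to 42.6% of their classes lower.

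Among the elongases, Elovl6 was the only gene with libraries that did not overlap between groups. Elovl6 (ENSMUSG00000041220, chromosome 3 from 129532386 to 129638495, plus strand) extends palmitate to stearate, the step between Fasn and the stearoyl-CoA desaturases. Its FPKM was 37.1, 35.4 and 36.7 in control cells, 36.1, 37.1 and 34.0 at 10 µg/ml, and 37.3, 43.7 and 41.1 at 100 µg/ml. All libraries at 100 µg/ml were above all others, but replicate 1 by a margin of under 1 FPKM. Groups that do not overlap, with the higher values at 100 µg/ml, were found for 12.5% of all genes against control and 9.37% against 10 µg/ml. Elovl6 differed by a log2 fold change of 0.16 from control (standard error 0.066, interval 0.0057 to 0.30, adjusted p = 0.243, limma) and of 0.18 from 10 µg/ml (interval 0.03 to 0.33, adjusted p = 0.260, limma). Neither passed the threshold, and it was the gene with an unadjusted p under 0.05 counted above. The group means were 40.7 and 36.4 FPKM, a ratio of 1.12.

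This result moved with the doubtful library and with the length correction. Without replicate 1 at 100 µg/ml the log2 fold change of Elovl6 was 0.21 against control and 0.24 against 10 µg/ml (adjusted p = 0.0632 and 0.0745, limma). That fit passed 0 of the 8 members and 4.83% and 1.71% of all genes. After a loess correction of each library for GC content and transcript length, chosen after seeing the data, it was 0.19 and 0.21 (adjusted p = 0.0341 and 0.0387, limma), and Elovl6 passed. Under that correction 7.39% and 2.98% of all genes passed, and 0 of the other 7 members. For the low dose against control the value was -0.03 (interval -0.18 to 0.12, adjusted p = 1, limma).

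The other elongases did not move beyond the spread between libraries. Elovl1 (ENSMUSG00000006390, chromosome 4 from 118428093 to 118432953, plus strand), which makes very long saturated and monounsaturated chains, was at 151, 148 and 144 FPKM in control cells, 149.8, 151 and 152 at 10 µg/ml, and 159, 152 and 147 at 100 µg/ml. It had the smallest standard error of the 8 genes (0.047), and with the high dose it differed from control by a log2 fold change of 0.05 (interval -0.06 to 0.15, adjusted p = 0.648, limma). A fold outside 0.958 to 1.11 therefore lies outside the interval. Without replicate 1 the log2 fold change was 0.015. Elovl5 (ENSMUSG00000032349, chromosome 9 from 77917364 to 77984519, plus strand), which extends polyunsaturated chains, was at 77.7, 87.5 and 76.2 FPKM in control cells, 88.2, 86.9 and 77.4 at 10 µg/ml, and 66.7, 85.6 and 77.9 at 100 µg/ml. The groups overlapped. For the high dose the log2 fold change was -0.07 (interval -0.30 to 0.15, adjusted p = 0.736, limma), and 0.02 without replicate 1.

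Within a library the ratio of these elongases was lowest at the high dose, by a small margin. The log2 ratio of Elovl5 to Elovl6 was 1.06, 1.31 and 1.06 in control cells, 1.29, 1.23 and 1.19 at 10 µg/ml, and 0.84, 0.97 and 0.92 at 100 µg/ml. All libraries at 100 µg/ml, replicate 1 among them, were below the lowest of the other groups. The ratio is not affected by the scaling between libraries, but it contains the Elovl6 values above, and the Elovl5 libraries overlapped in every comparison. How often the ratio of 2 genes separates the groups in this way was not counted. It is given as a description without a test.

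Of the stearoyl-CoA desaturases, Scd2 held nearly all of the RNA. Scd2 (ENSMUSG00000025203, chromosome 19 from 44293676 to 44306864, plus strand) was at 740.3, 784 and 809.8 FPKM in control cells, 772, 813 and 747 at 10 µg/ml, and 687, 789.5 and 728 at 100 µg/ml. The groups overlapped, with the lowest library again replicate 1 at 100 µg/ml. Against control, log2 fold changes were -0.08 at 100 µg/ml (interval -0.24 to 0.07, adjusted p = 0.542, limma) and -0.0011 at 10 µg/ml (interval -0.15 to 0.15, adjusted p = 1, limma). Without replicate 1 at 100 µg/ml it was -0.04.

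Scd1 (ENSMUSG00000037071, chromosome 19 from 44394451 to 44407709, minus strand), the form best known from liver and fat, was at 0.454, 0.680 and 0.233 FPKM in control cells, 0.418, 0.376 and 0.542 at 10 µg/ml, and 0.277, 0.508 and 0.268 at 100 µg/ml. These values correspond to an estimated 15.4 to 46.0 fragments per library. Their spread within control cells covered the range of every other library, so no difference was detectable at this depth. Scd1 made up 0.0288 to 0.0867% of the summed FPKM of the pair, and the log2 ratio of Scd1 to Scd2 was between -11.8 and -10.2. The related genes Scd3 and Scd4 were also low, at 0.277 to 0.653 and 0.0885 to 0.431 FPKM.

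How well the pair can be told apart matters for a ratio of this size. The coding sequences of Scd1 and Scd2 were identical at 90.4% of 1068 aligned positions, with a longest shared run of 147 nt. Over the whole transcripts, 223 of 4783 windows of 50 nt in Scd1 (4.66%) and 217 of 5406 in Scd2 (4.01%) occur in another gene. These counts are not of the pair alone. The gene sharing most windows with Scd1 was Scd3 (167), and the gene sharing most with Scd2 was Scd1 (145). A stretch of 60 nt across the end of that run, with 1 mismatch in capitals, shows how alike they can be. It lies on chromosome 19, from 44400321 to 44401698 (minus strand, 2 exons) in Scd1 and from 44299809 to 44301265 (plus strand, 2 exons) in Scd2.
Scd1: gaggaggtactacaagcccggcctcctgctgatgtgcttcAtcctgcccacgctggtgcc
Scd2: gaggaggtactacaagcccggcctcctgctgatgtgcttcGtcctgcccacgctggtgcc
With Scd2 at so high a level, some of the few fragments given to Scd1 could have come from stretches like this one. That share was not tested, and the Scd1 values are uncertain for this reason.

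Fads1 and Fads2 encode the front-end desaturases, of which Fads1 could be compared and Fads2 could not. Fads1 (ENSMUSG00000010663, chromosome 19 from 10182888 to 10196870, plus strand), the delta-5 desaturase that gives arachidonate, was at 79.2, 84.5 and 87.7 FPKM in control cells, 85.3, 88.7 and 82.6 at 10 µg/ml, and 87.0, 90.2 and 87.2 at 100 µg/ml. The range at 100 µg/ml overlapped the control range by 1 library. Its log2 fold changes against control were 0.07 at 100 µg/ml (interval -0.05 to 0.19, adjusted p = 0.499, limma) and 0.03 at 10 µg/ml (interval -0.09 to 0.15, adjusted p = 1, limma). Without replicate 1 at 100 µg/ml the first was 0.08. Fads2 (ENSMUSG00000024665, chromosome 19 from 10064164 to 10101503, minus strand), the delta-6 desaturase that acts before Fads1 on the same pathway, was listed at 0 in every library except replicate 1 at 10 µg/ml, with 0.04995 FPKM or an estimated 2.20 fragments.

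A value of 0 in this table can be a failed estimate, since 9 genes above 1000 FPKM in some library were at 0 in another. No limit is therefore given for Fads2, and its level is not read as low. It shares little sequence with Fads1. The coding sequences were identical at 67.8% of 1325 aligned positions, with a longest shared run of 17 nt, and only 5 of 3101 windows of Fads2 (0.161%) occur elsewhere, all in Fads3. The stretch of 60 nt around the shared run of 17 nt has 9 mismatches, shown in capitals. It lies on chromosome 19, from 10194371 to 10194521 in Fads1 (plus strand, 2 exons) and from 10064779 to 10065628 in Fads2 (minus strand, 2 exons).
Fads1: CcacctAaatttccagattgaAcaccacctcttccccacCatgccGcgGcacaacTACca
Fads2: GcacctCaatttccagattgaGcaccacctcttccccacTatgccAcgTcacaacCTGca
Fads3 and Fads6, the other genes of the family on the list, were at 0.0418 to 0.151 and 0.0122 to 0.137 FPKM.

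Around these enzymes, 6 lists of 92 genes were read, of which 75 were tested. At 100 µg/ml against control, 0 rose and 3 fell, beside 0.708% and 1.41% of all genes. At 10 µg/ml 0 changed, and at 100 against 10 µg/ml 0 rose and 1 fell, beside 0.215% and 0.636% of all genes. At an unadjusted p under 0.05 the counts in these comparisons were 17, 3 and 9 of the 75 genes, where 19.4%, 3.28% and 14.3% of all genes were under it. The 3 that fell were Hadhb, Lipa and Ptplad2, from 3 different lists.

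**Figure D4:**
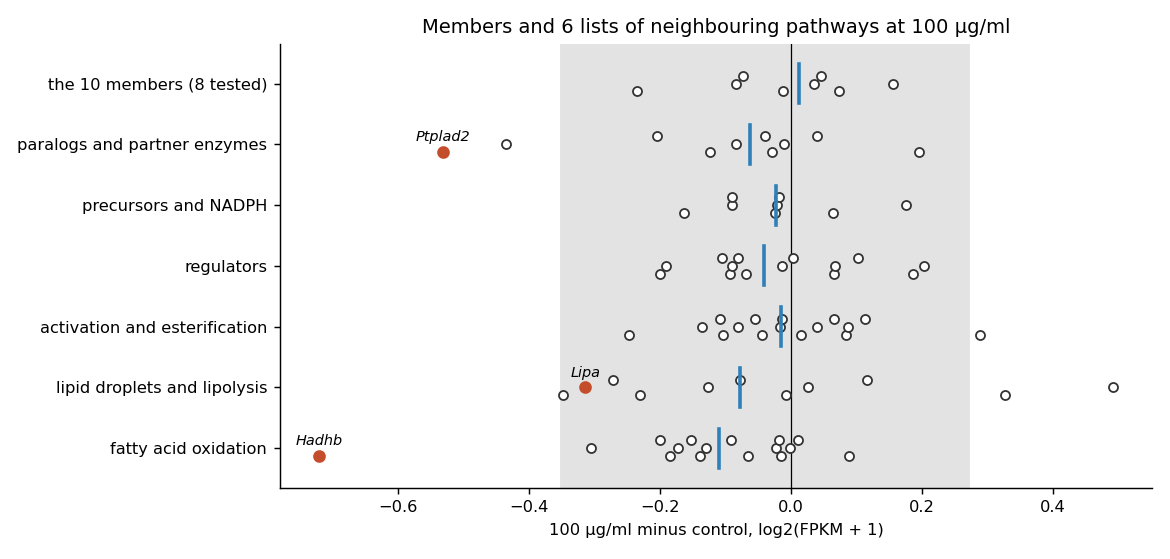
Log2 fold change at 100 µg/ml against control (horizontal axis, log2(FPKM + 1)) of the 8 members tested and of the 75 genes tested in 6 lists; each circle is a gene, filled where the adjusted p was under 0.05, blue lines are medians, and the grey band runs from the 5th to the 95th percentile of all genes tested. The filled genes are Hadhb, Ptplad2 and Lipa, all lower at 100 µg/ml.

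The paralogs and partner enzymes of the pathway had 18 genes, of which 10 were tested and 1 fell at 100 µg/ml. Ptplad2, also called Hacd4, belongs to the dehydratases of the elongation cycle. It was at 3.97, 4.0 and 3.97 FPKM in control cells, 3.46, 3.68 and 3.09 at 10 µg/ml, and 2.57, 2.49 and 2.29 at 100 µg/ml, without overlap between any of the groups. Libraries at 100 µg/ml that all lie below the control libraries were found for 11.4% of all genes. At 10 µg/ml 10.7% of all genes did not overlap control, in either direction. The share that lay lower at 100 than at 10 µg/ml without overlap was not counted. With the high dose Ptplad2 fell by 0.53 on the log2 scale (standard error 0.0855, adjusted p = 0.0192, limma). The call was lost in 4 of 9 fits that left out 1 library, namely any of the control libraries or replicate 3 at 100 µg/ml, with adjusted p up to 0.0862. It was also lost with replicate number as a block in the fit (adjusted p = 0.0535, limma) and with only the 6 libraries compared (adjusted p = 0.0734, limma). Ptplad2 was not tested with a filter at 5 FPKM. Elovl3, an elongase of very long chains, was at 3.52 ± 0.971 FPKM in controls and 2.31 ± 0.507 FPKM with the high dose (SD, n = 3 each), and its log2 fold change of -0.44 did not pass (adjusted p = 0.220, limma). Below the filter were Acacb, the mitochondrial form of the carboxylase, at 0.00823 to 0.0768 FPKM, and Elovl7 at up to 0.0311 FPKM. Elovl2 and Elovl4 were listed at 0 in all libraries.

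The supply of precursors and NADPH did not change by the test in any of its 8 genes. G6pdx, the first enzyme of the pentose phosphate pathway, averaged 123 ± 2.92 FPKM in controls and 116 ± 2.94 FPKM with the high dose (SD, n = 3 each, log2 fold change -0.09, adjusted p = 0.301, limma). Cs, the citrate synthase of the mitochondria, was at 146 ± 3.99 and 137 ± 2.67 FPKM (SD, n = 3 each, log2 fold change -0.09, adjusted p = 0.301, limma).

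Of the 16 regulators 14 were tested, 0 passed in any comparison, and their log2 fold changes at 100 µg/ml ran from -0.20 to 0.20. Insig1, the anchor that holds SREBP in the endoplasmic reticulum, was at 113, 119 and 113 FPKM in control cells and 135, 136 and 121 at 100 µg/ml (log2 fold change 0.19, adjusted p = 0.181, limma). Nr1h2, which encodes LXR beta, was at 22.6, 23.3 and 22.5 FPKM and at 29.4, 26.2 and 23.9 FPKM (log2 fold change 0.20, adjusted p = 0.235, limma), and without replicate 1 at 100 µg/ml the log2 fold change was 0.13. The genes of the factors themselves, named here after their values were seen, had log2 fold changes of 0.0028 for Srebf1 and 0.07 for Srebf2 (adjusted p = 0.990 and 0.705, limma).

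The activation and esterification list, which takes fatty acids on to glycerolipids, had 16 of 18 genes tested and none past the threshold. Dgat2, which makes triglyceride from diglyceride, was at 9.06, 8.93 and 8.72 FPKM in control cells, 9.84, 9.79 and 11.8 at 10 µg/ml, and 11.7, 10.5 and 11.1 at 100 µg/ml. Both doses lay above control cells, by 0.29 on the log2 scale at 100 µg/ml (adjusted p = 0.103, limma) and 0.21 at 10 µg/ml (adjusted p = 1, limma). At 100 µg/ml 12.5% of all genes lay above control without overlap. At 10 µg/ml 10.7% did not overlap control, in either direction. Agpat6, a glycerol-3-phosphate acyltransferase now called Gpat4, differed by 0.11 on the log2 scale with the high dose (adjusted p = 0.202, limma).

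In lipid droplets and lipolysis 11 of 12 genes were tested and 1 fell at 100 µg/ml. Lipa, the lysosomal acid lipase that frees fatty acids from cholesteryl esters and triglycerides, was at 130.2, 128 and 134 FPKM in control cells, 128, 125 and 123 at 10 µg/ml, and 98.6, 110.2 and 106 at 100 µg/ml. With the high dose Lipa fell by 0.31 on the log2 scale (standard error 0.053, adjusted p = 0.0215, limma). It was past the threshold in 5 of 9 fits that left out 1 library and lost without any of the control libraries or replicate 3 at 100 µg/ml, with adjusted p up to 0.0865. It was also lost with quantile normalization, with replicate number as a block in the fit (adjusted p = 0.0698, limma) and with only the 6 libraries compared. Plin2, the coat protein of lipid droplets, was at 78.0, 75.7 and 77.5 FPKM in control cells, 78.4, 74.3 and 79.9 at 10 µg/ml, and 109, 90.4 and 92.2 at 100 µg/ml. All libraries at 100 µg/ml were above the others, as was found for 12.5% of all genes against control and 9.37% against 10 µg/ml. The log2 fold change against control was 0.33 (adjusted p = 0.0606, limma) and missed the threshold. It passed without replicate 1 at 100 µg/ml, the highest library (0.24, adjusted p = 0.0262, limma).

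Fatty acid oxidation, the opposite pathway, had 16 of 20 genes tested, of which 1 fell at 100 µg/ml. Of the 16, 14 were below 0, with a median log2 fold change of -0.11, beside -0.0016 over all genes. Over the 6 lists 52 of the 75 genes tested were below 0. With the low dose 12 of the 16 were below 0, and 38 of the 75, against the same control libraries. Genes measured in the same libraries are not independent, and this lean was not tested. Hadhb (ENSMUSG00000059447, chromosome 5 from 30155248 to 30184593), the thiolase subunit of the mitochondrial trifunctional protein, was at 31.3, 37.2 and 31.8 FPKM in control cells, 28.3, 30.6 and 26.7 at 10 µg/ml, and 20.6, 19.4 and 19.5 at 100 µg/ml. No group overlapped another. Of all genes, 11.4% lay below control without overlap at 100 µg/ml, and 10.7% did not overlap control at 10 µg/ml, in either direction. For 100 below 10 µg/ml this share was not counted. Hadhb fell by 0.72 on the log2 scale at 100 µg/ml against control (standard error 0.079, adjusted p = 0.00566, limma) and passed in all 9 fits that left out 1 library. Against 10 µg/ml it fell by 0.50 (adjusted p = 0.0311, limma), a call lost in 7 of these fits. These are the fits without control replicate 1 or 3, without any library at 10 µg/ml, and without replicate 2 or 3 at 100 µg/ml, with adjusted p up to 0.146. Hadha, the other subunit of the same protein and named after its value was seen, had a log2 fold change of 0.01 (adjusted p = 0.915, limma). Cpt1a, which brings fatty acids into mitochondria, averaged 3.93 ± 0.330 FPKM in controls, 3.21 ± 0.116 with the low dose and 2.99 ± 0.145 with the high dose (SD, n = 3 each). Its high dose difference of -0.30 on the log2 scale did not pass (adjusted p = 0.102, limma).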

How the data were processed

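Poly(A) RNA of 9 BV2 libraries was sequenced. After quality filtering and TopHat alignment, the authors estimated the deposited FPKM values by Cufflinks 2.1.1 with Ensembl release 77 (GRCm38), correcting for fragment bias and for reads with several map positions; no counts were used. Groups followed the labelled treatment. FPKM was transformed to log2(FPKM + 1), so fold changes of low genes are understated. All genes averaging 1 FPKM or more over the 9 libraries entered limma 3.58.1, run in R 4.3.3. The 3 groups shared the same fit, with eBayes with trend, Benjamini-Hochberg adjustment and a threshold of 0.05. The procedure was also run on simulated data with independent noise for each gene. Those data held no effect of transcript length like that of replicate 1 at 100 µg/ml. Tables and figures used Python 3.11.15, pandas 2.3.3 and matplotlib 3.10.9. Depth was estimated from 3373 low values, of which 76.8% lay within 0.25 of a whole fragment. The depth was chosen to bring these same values near whole fragments. The 50% that chance gives without such a choice is therefore no test of it. Fragment numbers are approximate, and counting error is only part of their error. Transcript lengths and sequences came from GENCODE M21, using the longest transcript, and alignments from Biopython 1.88. The members and lists were chosen with earlier results of these data known. Genes named from each list were those past the threshold in any comparison and the 2 with the smallest p at 100 µg/ml against control. Alternatives tried were other pseudocounts (0.1 and 0.01), no filter, a filter at 5 FPKM, quantile and median-of-ratios scaling, a replicate block, eBayes without trend, only the 6 libraries compared, each library left out, and the loess correction (span 0.5). Cuffdiff takes alignments and was not repeated.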

Additional observations from a re-analysis of the deposited data

How the results depend on the processing

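Over 19 alternatives, 456 values of the 8 members were computed, and 2 passed the threshold, both for Elovl6 under the loess correction. That made the number of members past it 1 in each comparison with 100 µg/ml. It was 0 in every fit that left out a library. Several small differences changed sign. With quantile normalization Acly became 0.041 and Scd2 0.0022 at 100 µg/ml against control, Acly 0.0034, Scd2 0.090 and G6pdx 0.0054 at 10 µg/ml, and Elovl1 -0.018 at 100 against 10 µg/ml. With the loess correction Acly became 0.012 against control and Fasn 0.087 against 10 µg/ml. With single libraries left out, the log2 fold changes at 100 µg/ml against control ranged from -0.093 to 0.11 for Acly, -0.42 to 0.065 for Acaca, -0.033 to 0.14 for Fasn and -0.15 to 0.024 for Elovl5. At 10 µg/ml they ranged from -0.10 to 0.024 for Acly, -0.014 to 0.10 for Fasn, -0.053 to 0.0089 for Elovl6, -0.036 to 0.028 for Scd2, -0.0100 to 0.063 for Fads1, -0.014 to 0.024 for Cs, -0.015 to 0.085 for Insig1 and -0.014 to 0.037 for Plin2. At 100 against 10 µg/ml they ranged from -0.047 to 0.16 for Acly, -0.33 to 0.15 for Acaca, -0.086 to 0.088 for Fasn, -0.019 to 0.040 for Elovl1 and -0.0027 to 0.14 for Nr1h2.

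In the lists at 100 µg/ml against control, the 1 paralog or partner enzyme, Ptplad2, became 0 with a filter at 5 FPKM, with the replicate block and with only the 6 libraries compared, and 0 to 1 with single libraries left out. The lipid droplet count of 1, which was Lipa, became 2 with quantile normalization. Lipa was not among these and Plin2 was (adjusted p = 0.071 and 0.0263, limma). The count became 4 with the loess correction, Lipa and Plin2 among them. It became 0 with the block and with 6 libraries, and 0 to 3 with single libraries left out. The activation and esterification count became 1 with the loess correction. At 100 against 10 µg/ml the lipid droplet count became 1 with quantile normalization, 2 with the loess correction and 0 to 1 with single libraries left out, and the 1 fatty acid oxidation gene became 0 without a filter, with the block and with 6 libraries, and 0 to 1 with single libraries left out. With the replicate block the adjusted p (limma) was 0.0535 for Ptplad2 and 0.0698 for Lipa at 100 µg/ml against control and 0.0656 for Hadhb against 10 µg/ml. The cause of these shifts was not tested.

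Over all genes the 236 and 95 calls at 100 µg/ml against control and against 10 µg/ml became 106 and 13 with the replicate block, 22 and 6 with only 6 libraries, and 818 and 330 with the loess correction. With single libraries left out the first was 31 (without control replicate 2) to 539 (without replicate 1 at 100 µg/ml), and the second 8 (without replicate 1 at 10 µg/ml) to 191 (without replicate 1 at 100 µg/ml). For libraries with the same number, r of their deviations from the group means was -0.088 to 0.15. For libraries with different numbers it was -0.17 to 0.14. With 3 libraries per group these values cannot show whether the numbers pair the samples, and the labels do not say. The block changed no call of a member. Scd1 rests on too few fragments for a comparison, the listed 0 of Fads2 gives none, and the widths of the intervals set what the other 8 genes could show.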
